A study of Mus musculus with 6 samples.

Results

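Eicosanoid synthesis genes were followed across 3 kinds of mouse fat cell. The list held 10 genes, chosen by symbol, and 9 of them had probe sets of their own symbol, 14 probe sets in all, among 43057 probe sets and 17720 named genes. Where a gene had several probe sets, the one brightest on average across the 6 arrays was used. Ptgs1 (cyclooxygenase 1) was not analysed here.

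The marrow-derived group (2 arrays) held fat cells that descend from transplanted bone marrow. They were sorted by flow cytometry, for a donor marker, from the floating adipocyte fraction of the recipients' gonadal fat. Donors of replicate 1 carried green fluorescent protein and those of replicate 2 carried beta-galactosidase, so each array of this group rests on another donor type; they are called the GFP array and the LacZ array here. The white group (2 arrays) held gonadal white adipocytes, and the brown group (2 arrays) held brown adipocytes from dorsal fat that the labels call intrascapular. Tissue of all groups was digested with collagenase at 2 mg/ml for 1 hour, and the protocol, worded alike for every sample, pools 6 or more sorts of about 5000 adipocytes. It describes the sort by donor marker alone, so whether white and brown adipocytes were sorted in the same way is not known from the labels. The RNA was amplified before labelling. The labels give no age, sex, strain or treatment for any group, and they do not say whether the white and brown cells came from transplanted mice. Samples are labelled as biological replicates, with no word on separate animals. The p-values therefore reflect only how these samples vary, and part of that may be technical.

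Eicosanoids are short-range lipid signals made from arachidonic acid after a phospholipase frees it from the membrane. Cyclooxygenases (Ptgs1, Ptgs2) turn it into an unstable intermediate from which terminal synthases make prostaglandin D (Ptgds, Hpgds) or prostaglandin E (Ptges). Lipoxygenases oxidise it by another route, in which Alox5 with its helper Alox5ap leads to the leukotrienes, completed by Ltc4s, while Alox12 and Alox15 make hydroxylated fatty acids. In fat, prostaglandin E restrains lipolysis, prostaglandin D products act on adipogenesis, and much of the leukotriene machinery is known from macrophages and other leukocytes.

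Ptgds was high in brown adipocytes alone, Alox12 was low in white adipocytes alone, and Ptges was lower in marrow-derived than in white adipocytes. These were the members that passed the test. The leukotriene genes, Alox15 and Hpgds differed more between the GFP and LacZ arrays than between group means, and none of them passed in any comparison. All values are log2 expression values, on which 1 unit is a 2-fold difference. A test is limma's moderated test with Benjamini-Hochberg adjustment over 17720 genes and a threshold of 0.05, and ± beside a difference is the standard error (SE) from limma, with 2 arrays per group. Values of 32 olfactory receptor genes, which fat cells are not known to use, had a median of 2.71, and 90% of them lay under 3.70. A value near or under that level is called near background here, and the size of a fold that reaches it is uncertain.

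**Figure D1:**
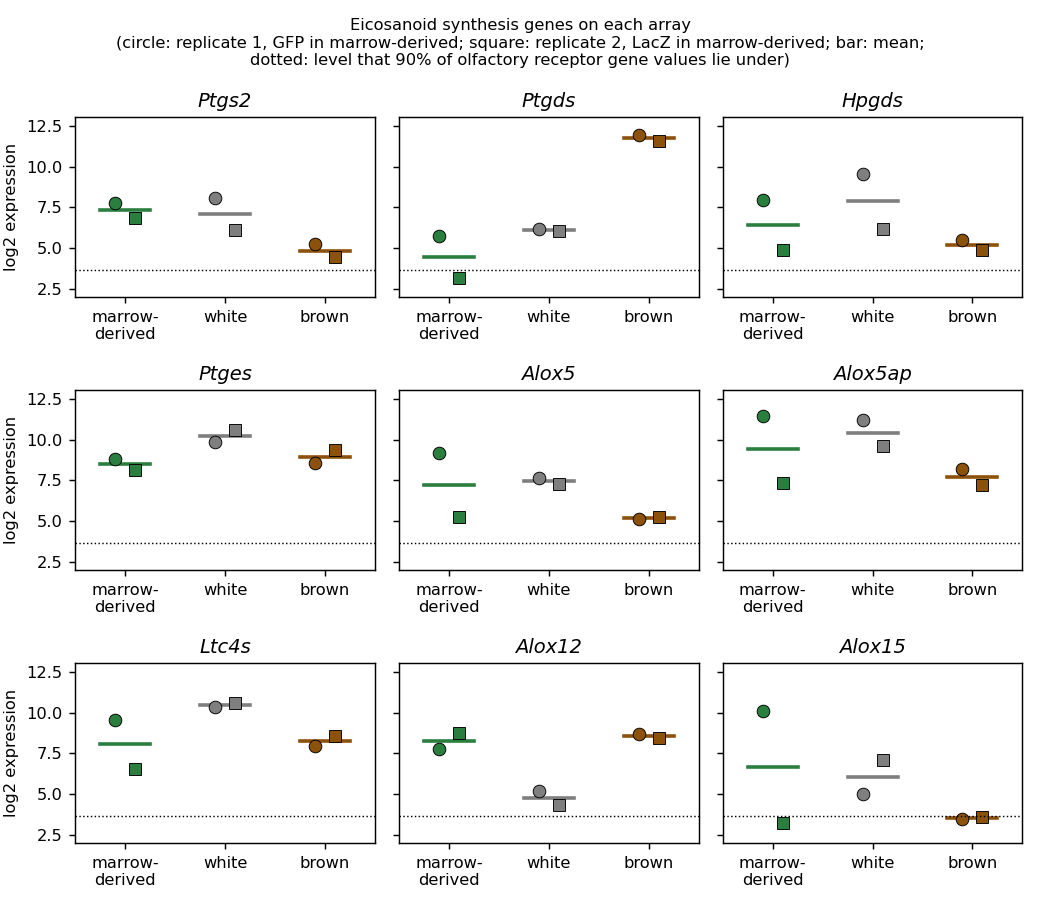
Log2 expression (y axis) of the 9 measured genes on each of the 6 arrays, by group (x axis). Circles are replicate 1 (GFP in the marrow-derived group), squares are replicate 2 (LacZ), bars are group means, and the dotted line marks 3.70, under which 90% of olfactory receptor values lie. Ptgds stands at 11.93 and 11.53 in brown adipocytes and at most 6.17 elsewhere, and Alox15 spans 3.25 to 10.07 within the marrow-derived group.

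Ptgs2, the inducible cyclooxygenase, stood at 7.77 on the GFP array, 6.86 on the LacZ array, 8.06 and 6.12 in white and 5.24 and 4.47 in brown adipocytes. Both brown arrays lay below all others, and the marrow-derived values lay between those of the white arrays. Marrow-derived cells exceeded brown ones by 2.46 ± 0.71 (limma adjusted p = 0.0671) and white exceeded brown by 2.23 ± 0.71 (adjusted p = 0.124), so neither difference passed. The first was called where either white array was left out (adjusted p = 0.0295 each). Marrow-derived against white it was 0.22 ± 0.71, with a 95% interval of -1.57 to 2.01. The other Ptgs2 probe set read 2.01 to 3.33 on the 6 arrays, near background throughout, and passed in no comparison.

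Ptgds, the lipocalin-type prostaglandin D synthase, which also carries small lipophilic molecules, held the largest difference among the members that passed. It stood at 5.77 and 3.17 on the GFP and LacZ arrays, 6.17 and 6.07 in white and 11.93 and 11.53 in brown adipocytes. Brown arrays lay far above the other 4, and the LacZ value lay under the background level of 3.70. Ptgds was 153-fold lower in marrow-derived than in brown adipocytes (-7.26 ± 0.82, limma adjusted p = 0.00671) and 48.8-fold lower in white than in brown (-5.61 ± 0.82, adjusted p = 0.0198). In these bulk samples, fewer cells of a type and less RNA per cell cannot be told apart. The other Ptgds probe set went the same way, at -5.12 ± 0.32 and -4.64 ± 0.32 with adjusted p = 0.00192 and 0.0053 over all probe sets. The call against marrow-derived cells was lost without brown replicate 1 (-7.06, adjusted p = 0.0623) or 2 (-7.46, adjusted p = 0.0665), and the difference was -8.56 without the GFP array and -5.96 without the LacZ array. The call against white was lost without brown replicate 1 (-5.41, adjusted p = 0.16), brown replicate 2 (-5.81, 0.119), white replicate 1 (-5.66, 0.069) or white replicate 2 (-5.56, 0.0723). Marrow-derived against white the difference was -1.65 ± 0.82 (adjusted p = 0.208), and it was called only without the GFP array (-2.95, adjusted p = 0.00537).

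Hpgds, the hematopoietic prostaglandin D synthase of mast cells and macrophages, makes the same product by an unrelated enzyme. It stood at 7.98 and 4.89 on the GFP and LacZ arrays, 9.53 and 6.21 in white and 5.49 and 4.91 in brown adipocytes. Replicates of the marrow-derived and white groups lay 3.09 and 3.32 apart, and the marrow-derived range overlapped both other groups. It passed in no comparison, with differences of -1.44 ± 1.41 for marrow-derived against white, 1.24 ± 1.41 when marrow-derived was set against brown and 2.67 ± 1.41 when white was. Where Ptgds was highest, in brown, Hpgds values were among its lowest.

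Ptges, the inducible microsomal prostaglandin E synthase, stood at 8.81 and 8.14 on the GFP and LacZ arrays, 9.85 and 10.60 in white and 8.55 and 9.34 in brown adipocytes. White arrays were highest, and marrow-derived and brown arrays overlapped. Ptges was 3.36-fold lower in marrow-derived than in white adipocytes (-1.75 ± 0.42, limma adjusted p = 0.035). The other Ptges probe sets passed the same way over all probe sets, at -2.94 ± 0.58 (adjusted p = 0.0207) and -2.46 ± 0.65 (adjusted p = 0.0481). The call was lost without the LacZ array (-1.41, adjusted p = 0.11), without white replicate 2 (-1.37, 0.146) or with only 1 brown array (-1.75, 0.0597 each). White against brown the difference was 1.27 ± 0.42 (adjusted p = 0.134), with a 95% interval of 0.22 to 2.33, and marrow-derived against brown it was -0.47 ± 0.42.

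Alox5, the 5-lipoxygenase that starts leukotriene synthesis, stood at 9.19 and 5.26 on the GFP and LacZ arrays. White adipocytes were at 7.64 and 7.29 and brown at 5.13 and 5.27. The white pair thus lay between the marrow-derived arrays, and the LacZ array lay among the brown ones. Alox5 differed by -0.24 ± 1.22 between marrow-derived and white, 2.03 ± 1.22 between marrow-derived and brown and 2.26 ± 1.22 between white and brown, with limma adjusted p = 0.914, 0.293 and 0.313. With 1 marrow-derived array left out, the difference from white was called in either direction. It was 1.73 (adjusted p = 0.0186) on the GFP array alone and -2.20 (adjusted p = 0.00744) on the LacZ array alone. Against brown it was 3.99 on the GFP array alone (adjusted p = 0.00689). White against brown was called where either marrow-derived array was left out (2.26, adjusted p = 0.0101 each).

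Alox5ap, the membrane protein that presents arachidonic acid to Alox5, stood at 11.46 and 7.34 on the GFP and LacZ arrays, 11.18 and 9.59 in white and 8.18 and 7.24 in brown adipocytes. The GFP array was highest and the LacZ array was within the brown range. Its differences were -0.99 ± 1.39 from white and 1.69 ± 1.39 from brown in marrow-derived cells, and 2.68 ± 1.39 between white and brown. None passed in limma, and the difference from brown was called on the GFP array alone (3.75, adjusted p = 0.041).

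Ltc4s, which joins glutathione to the leukotriene intermediate, stood at 9.55 and 6.54 on the GFP and LacZ arrays, 10.31 and 10.56 in white and 7.97 and 8.56 in brown adipocytes. White arrays were highest, the LacZ array was lowest, and the brown arrays fell between the marrow-derived ones. The difference of marrow-derived from white was -2.38 ± 0.95 (limma adjusted p = 0.131), and it was called on the LacZ array alone (-3.89, adjusted p = 0.00513). Against brown the sign turned, from 1.29 on the GFP array alone (adjusted p = 0.0613) to -1.72 on the LacZ array alone (adjusted p = 0.0311). White against brown it was 2.16 ± 0.95 (adjusted p = 0.231), and it was called where either marrow-derived array was left out (adjusted p = 0.0159 each).

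Alox12, the platelet-type 12-lipoxygenase, had its lowest values in white adipocytes. It stood at 7.78 and 8.77 on the GFP and LacZ arrays, 5.21 and 4.37 in white and 8.69 and 8.46 in brown adipocytes. Both white arrays lay well below the other 4, and the marrow-derived and brown ranges overlapped. Alox12 was 11.2-fold higher in marrow-derived than in white adipocytes (3.48 ± 0.43, limma adjusted p = 0.00701) and 13.8-fold lower in white than in brown (-3.78 ± 0.43, adjusted p = 0.0126). The first of these calls held with any 1 of the 6 arrays left out (2.99 to 3.97, adjusted p = 0.00659 to 0.0325). The second was lost without brown replicate 1 (-3.66, adjusted p = 0.122) or 2 (-3.90, 0.0912). Marrow-derived against brown it was -0.30 ± 0.43, with a 95% interval of -1.38 to 0.78. The other Alox12 probe set passed in the same comparisons, at 1.04 ± 0.26 (adjusted p = 0.0418) and -1.42 ± 0.26 (adjusted p = 0.0361) over all probe sets.

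Endothelial markers, like Alox12, were lowest in white. All 12 markers were called higher in marrow-derived than in white and lower in white than in brown adipocytes, and their summed level (log2 of the summed linear values) was 15.15 and 15.68 on the GFP and LacZ arrays, 12.04 and 11.02 in white and 14.78 and 14.43 in brown. Unlike Alox12, their sum was higher on both marrow-derived arrays than on both brown ones, and Erg was called higher there (1.40 ± 0.31, limma adjusted p = 0.0347). The summed level of 8 smooth muscle and pericyte markers was lowest in white too. It was 13.90 and 14.39 on the GFP and LacZ arrays, 12.67 and 12.70 in white and 13.25 and 13.02 in brown. Of these 8, 5 were called higher in marrow-derived than in white (12.2% of all genes). White against brown, 2 were called lower (5.34%) and 1 higher (3.87%). Platelets are the classical site of Alox12. Of 8 measured megakaryocyte and platelet markers 1, Ppbp, was called, higher in marrow-derived than in white. Their summed level was 12.89 and 10.80, 12.19 and 11.59, and 10.17 and 10.36 in the same order, led by Pf4. Of the platelet receptor and integrin genes, Gp1bb, Gp5 and Gp6 read 2.40 to 4.14, Gp9 4.89 to 6.07, Itga2b 5.68 to 6.83 and Itgb3 4.90 to 7.73, with the last 2 highest on the LacZ array. The part of endothelial, smooth muscle, pericyte or platelet RNA in the Alox12 result was not tested.

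Alox15, the leukocyte-type lipoxygenase that in mice is known from resident peritoneal macrophages and eosinophils, stood at 10.07 and 3.25 on the GFP and LacZ arrays. White adipocytes were at 5.03 and 7.11 and brown at 3.46 and 3.60. The GFP array lay above all others, and the LacZ and brown arrays were near background. The GFP array exceeded the LacZ array by 6.81, or 112-fold, which was rank 1 by size of all 17720 genes. Alox15 differed by 0.59 ± 2.18 between marrow-derived and white, 3.13 ± 2.18 between marrow-derived and brown and 2.54 ± 2.18 between white and brown, and none passed (limma adjusted p = 0.877, 0.359 and 0.523). On the GFP array alone it was called higher than white (3.99, adjusted p = 0.0415) and brown (6.53, adjusted p = 0.0172). On the LacZ array alone the differences were -2.82 and -0.28.

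Counted over the list, limma called 1 of 9 members higher in marrow-derived than in white adipocytes, where 12.2% of all genes were called higher, and 1 lower, against 13.6% (25.8% in either direction). Marrow-derived against brown, 0 of 9 were called higher (8.71% of all genes) and 1 lower (11.7%; 20.4% in either direction), with 1 in each direction at an unadjusted p under 0.05. White against brown, 0 were called higher (3.87%) and 2 lower (5.34%; 9.21% in either direction), with 2 in each direction at an unadjusted p under 0.05. With 9 members, the counts in the comparisons of marrow-derived cells lie near the shares of all genes. The 2 called lower in white than in brown, Alox12 and Ptgds, lie above their share. None of these counts was tested. The arrays of the groups did not overlap for 4 of 9 members in marrow-derived against white, where 64.3% of all genes did not overlap, and for 2 in marrow-derived against brown (65.0%). White against brown 9 of 9 did not overlap (62.2%), 7 of them higher in white, with a median difference of 2.23 against 0.02 over all genes. Each array enters 2 of the 3 comparisons, so these counts are not separate evidence.

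**Figure D2:**
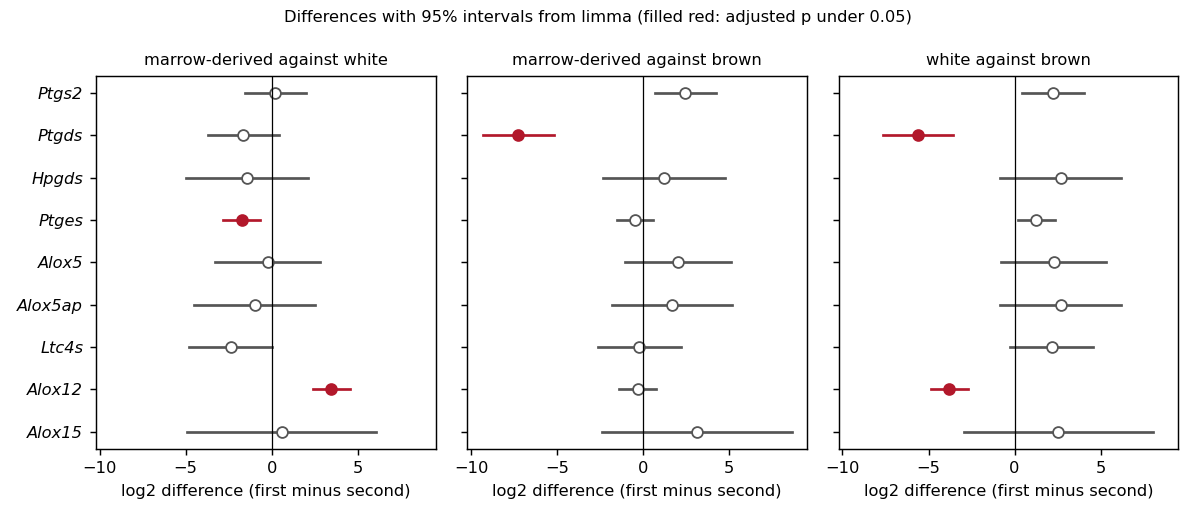
Log2 differences (x axis) of the 9 genes (y axis) in the 3 comparisons, first group minus second, with 95% intervals from limma; filled red points passed the adjusted threshold of 0.05. Ptgds is lowest against brown in both right-hand panels (-7.26 and -5.61), Alox12 moves opposite ways in the outer panels (3.48 and -3.78), and the intervals of Alox15 are the widest.

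The GFP and LacZ arrays stood apart for most members. The GFP array was higher for 8 of 9 members, by at least 2 units for 6 of them, where 2.92% of all genes were that much higher. It was lower by 2 units for 0 members, where 0.440% of all genes were. The 6 were Alox15, Alox5ap (4.12), Alox5 (3.93), Hpgds (3.09), Ltc4s (3.01) and Ptgds (2.60). Alox12 was the member higher on the LacZ array, by 0.99. Among members, white arrays differed by at least 2 units for Hpgds (3.32) and Alox15 (-2.08), against 1.74% of all genes. No member did so between brown arrays, against 0.271% of genes. These pairs hold 1 array each and carry no test.

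**Figure D3:**
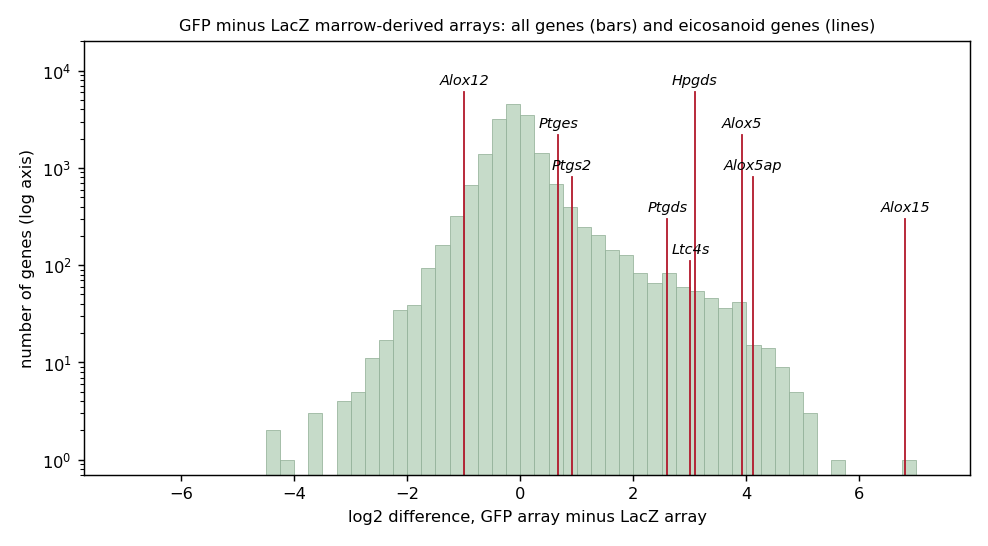
Distribution over 17720 genes of the log2 difference between the GFP and LacZ arrays (x axis; bars count genes in steps of 0.25 on a log axis), with the 9 genes as labelled lines whose heights carry no value. Alox12 lies left of 0 at -0.99, 6 genes lie at 2.60 or more, and Alox15 lies at the right end of the distribution, at 6.81.

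Macrophage markers also stood apart between these arrays. All 16 measured markers were higher on the GFP than on the LacZ array, 11 of them by at least 2 units, and 15 of 16 were higher in white replicate 1 than 2. Hpgds (3.32), Ptgs2 (1.94), Alox5ap (1.58), Alox12 (0.84), Alox5 (0.35) and Ptgds (0.10) were higher in white replicate 1 as well. Alox15 (-2.08), Ptges (-0.75) and Ltc4s (-0.25) were lower there. The summed level of the macrophage markers was 15.78 and 13.68 on the GFP and LacZ arrays, 15.70 and 14.58 in white and 13.63 and 13.03 in brown adipocytes. The mannose receptor gene Mrc1 read 12.14 and 9.87, 11.88 and 11.01, and 9.54 and 9.40 in that order. The growth factor receptor gene Csf1r read 13.08 and 10.97, 12.69 and 11.57, and 10.70 and 9.79. Of the 16, Marco was called lower in marrow-derived than in white and higher in white than in brown, and Mertk was called higher in marrow-derived than in brown. Across the 6 arrays, which share 3 groups, the mean of the macrophage list had a Pearson r of 0.985 with Alox5ap, 0.944 with Hpgds, 0.928 with Alox5, 0.867 with Ptgs2, 0.743 with Alox15 and 0.721 with Ltc4s, as a description of these arrays. It was 0.384 with Ptges, -0.489 with Ptgds and -0.627 with Alox12. The part of macrophage RNA in these values was not tested.

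Mast cells, eosinophils and neutrophils also carry some of these enzymes. Of 11 mast cell and basophil markers, the mast cell genes Cpa3, Ms4a2, Fcer1a and Tpsab1 read 2.25 to 4.86 on the 6 arrays, and Mcpt4 and Cma1 were highest in white replicate 1 (5.81 and 6.41). The list also holds Kit (4.99 to 9.65), Gata2 (6.75 to 11.11) and Hdc (5.59 to 8.44), which were called higher in marrow-derived than in white and which other cells express, and Tpsb2, which was called lower. Of 5 eosinophil markers, Epx and Il5ra read 2.27 to 3.84, Siglecf was highest on the GFP array and white replicate 1 (5.39 and 5.36), and Prg2 was called higher in marrow-derived than in white and brown. The mean of the eosinophil list had a Pearson r of 0.933 with Ptgs2 over the 6 arrays. Of its 5 genes, 4 were below the background level on the LacZ array and on white replicate 2, and 5 on each brown array. On the GFP array 1 was below it, and on white replicate 1 there were 2. The r thus rests largely on values near background and is a description only. Of 8 neutrophil markers 1, Elane, was called, lower in marrow-derived than in white. S100a9, which macrophages can also express, read 9.98 and 4.85 on the GFP and LacZ arrays, 6.98 and 7.41 in white and 7.73 and 7.15 in brown. S100a8 was instead highest on the white arrays. It differed by -3.41 ± 1.19 for marrow-derived against white and 3.79 ± 1.19 for white against brown, and neither passed. The summed level of the neutrophil markers was 10.72 and 7.25 on the GFP and LacZ arrays, 11.16 and 10.59 in white and 8.71 and 8.35 in brown. Mesothelial markers were higher on the GFP than on the LacZ array in 8 of 8 genes, with a summed level of 11.54 and 9.60, against 10.94 and 10.53 in white and 6.81 and 7.09 in brown. Their part was not tested either.

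Adipocyte markers were high on all arrays, and their summed level was lower on the marrow-derived ones. Adipoq read 12.70 and 11.86 on the GFP and LacZ arrays, 13.22 and 13.24 on the white and 13.01 and 13.15 on the brown ones, and the summed level of 11 markers was 15.68 and 15.10, 16.28 and 16.43, and 16.13 and 16.18. Of the 11, 4 were called lower in marrow-derived than in white (Lipe, Cidec, Slc2a4 and Plin4), 3 lower than in brown (Lipe, Slc2a4 and Pnpla2) and 0 higher in either. Fabp4 differed by -0.03 ± 0.17 from white and -0.16 ± 0.17 from brown. Pparg differed by -0.13 ± 0.20 from white and -0.22 ± 0.20 from brown, and neither gene was called. The glucose transporter gene Slc2a4 read 9.78 and 9.32 on the GFP and LacZ arrays, 11.70 and 11.91 in white and 12.07 and 12.34 in brown, and was 4.75-fold lower in marrow-derived than in white (-2.25 ± 0.23, limma adjusted p = 0.00492). Ptges was also lower in that comparison, and the part of adipocyte content in it was not tested. Ucp1, the uncoupling protein of brown fat, read 13.58 and 13.53 in brown and 4.84 to 7.68 elsewhere, as the labels would have it. Of 7 brown adipocyte markers 6 were called lower in marrow-derived than in brown and 4 lower in white than in brown, along with Ptgds.

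**Figure D4:**
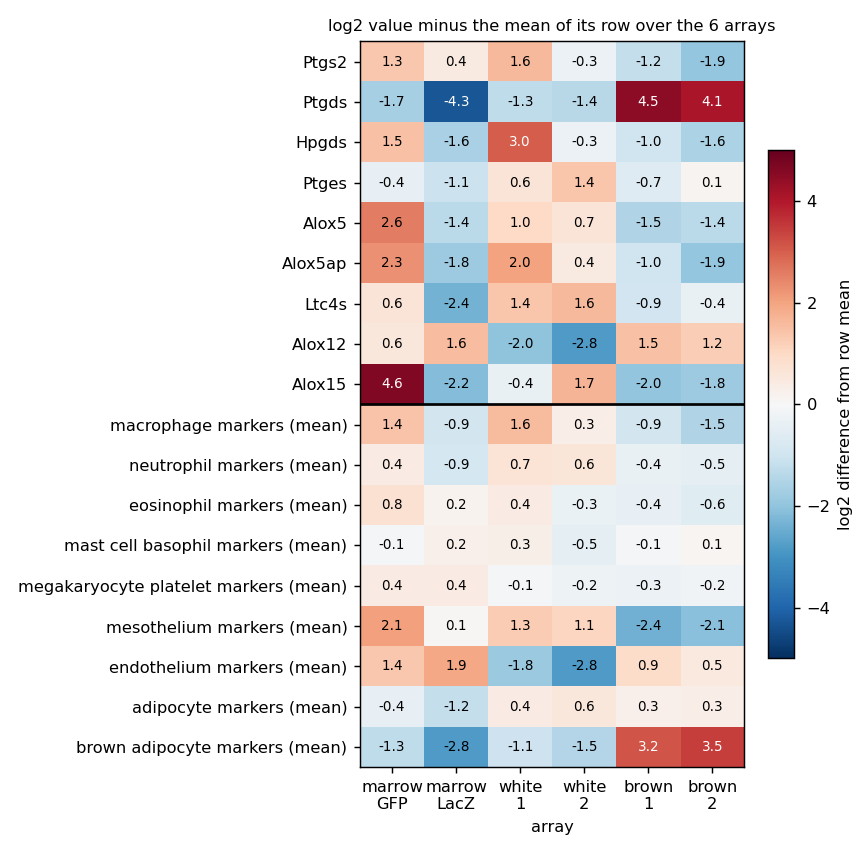
Log2 value minus the mean of its row over the 6 arrays (colour and printed value), for the 9 genes (above the line) and for the mean of each marker list (below it), with arrays in columns. Alox5ap, Hpgds and macrophage markers are high on the GFP array and white replicate 1. Alox5 is above its row mean on the GFP array and both white arrays. Alox12 and endothelial markers are low in white, and Ptgds and brown adipocyte markers are high in brown.

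The bases before a RefSeq start site are shown for members that were highest on different arrays. RefSeq start sites (GRCm38.p6) were given for 8 of the 10 listed genes; Alox5ap and Alox15 had none. Each line gives 150 bases that end just before the start site used, 5′ to 3′ on the gene's strand. For Hpgds and Ptgds the bases shown lie inside the annotated gene, whose first base is at 65144981 and 25470110. The Alox12 bases overlap its annotated gene, whose first base is at 70255380. Capitals mark GAGGAA (1 purine-rich form of the sites of ETS factors, among them the myeloid factor PU.1) and GGGCGG (the GC box). Both were read on both strands. Alox5 was highest on the GFP array, Hpgds on white replicate 1 and Ltc4s on the white arrays. Ptgds was highest in brown, and Alox12 was highest on the LacZ array and lowest in white.
Alox5, chr6:116461179-116461328, minus strand: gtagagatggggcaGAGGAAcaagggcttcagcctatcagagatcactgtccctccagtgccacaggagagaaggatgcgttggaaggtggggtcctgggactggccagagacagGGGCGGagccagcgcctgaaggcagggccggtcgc
Hpgds, chr6:65144731-65144880, minus strand: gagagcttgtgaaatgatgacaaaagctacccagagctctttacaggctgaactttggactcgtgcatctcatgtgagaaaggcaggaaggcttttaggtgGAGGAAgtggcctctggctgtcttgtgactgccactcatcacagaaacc
Ltc4s, chr11:50238533-50238682, minus strand: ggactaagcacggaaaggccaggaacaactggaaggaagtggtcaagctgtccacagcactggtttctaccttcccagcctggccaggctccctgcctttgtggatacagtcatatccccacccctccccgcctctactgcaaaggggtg
Ptgds, chr2:25469750-25469899, minus strand: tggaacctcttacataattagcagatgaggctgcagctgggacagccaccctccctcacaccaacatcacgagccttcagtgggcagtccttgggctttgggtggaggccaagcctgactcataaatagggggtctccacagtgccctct
Alox12, chr11:70255371-70255520, minus strand: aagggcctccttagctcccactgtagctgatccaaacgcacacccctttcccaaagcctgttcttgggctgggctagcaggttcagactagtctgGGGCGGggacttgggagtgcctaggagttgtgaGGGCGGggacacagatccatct

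Over the 250 bases before the start site used, GAGGAA on either strand occurred in 23.2% of 32851 promoters, GGGCGG in 32.7% and TATAA in 22.8%. Distances are counted from that site. GAGGAA lay 136 to 131 bases before the start of Alox5, 49 to 44 before that of Hpgds and, on the other strand and outside the bases shown, 245 to 240 before that of Alox12. GGGCGG lay 35 to 30 bases before the start of Alox5 and 55 to 50 and 22 to 17 before that of Alox12. The letters searched were not in this window of Ltc4s or Ptgds, and TATAA was in none of these 5. Other forms of ETS factor sites were not searched, so their absence is not shown for any gene. A match of letters is a description of the sequence.

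Other genes of the pathway were taken from 7 lists by role, 70 measured genes of 84. Limma called 6 of the 70 higher and 18 lower in marrow-derived than in white adipocytes, 5 higher and 12 lower in marrow-derived than in brown, and 6 higher and 2 lower in white than in brown. Shares over all genes were 12.2% and 13.6%, 8.71% and 11.7%, and 3.87% and 5.34% in the same order, and they are the background for the counts by role too, none of which was tested as a list. Without white replicate 2 the first of these counts fell to 1 higher and 8 lower, without white replicate 1 to 5 and 12, without either brown array to 2 and 12, and without the GFP or the LacZ array 2 or 3 were higher. Without brown replicate 1 or 2 the counts against brown were 0 higher and 2 or 0 lower for marrow-derived, and 0 higher and 0 lower for white. White against brown also gave 1 and 3 without white replicate 1, 3 and 0 without white replicate 2, and 11 and 3 without either marrow-derived array, and marrow-derived against brown gave 3 and 11 without the GFP array and 8 and 10 without the LacZ array. Up to 3 calls per list and comparison were picked by size of difference. Of the 19 such calls in marrow-derived against white, those of Pla2g2e, Pla2g5, Pla2g12a, Mgst3, Ptgr2, Abcc4 and Ptgfr held with any array left out. None of the 14 (marrow-derived) and 8 (white) such calls in the comparisons with brown did.

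Genes of arachidonic acid release that passed were lower in marrow-derived cells. Of 19 phospholipases 5 were called lower (13.6% of all genes) and 0 higher (12.2%) against white, with a median of -0.20 (all genes -0.07). Pla2g2e, a secreted phospholipase, stood at 4.66 and 4.93 on the GFP and LacZ arrays, 8.96 and 10.04 in white and 6.55 and 7.74 in brown. It was 26.0-fold lower than in white (-4.70 ± 0.52, limma adjusted p = 0.00586) and 5.09-fold lower than in brown (-2.35 ± 0.52, adjusted p = 0.0343; -2.95 without brown replicate 1 and -1.75 without brown replicate 2). Pla2g5, also secreted, was 5.57-fold lower than in white (-2.48 ± 0.31), with marrow-derived and brown values of 2.20 to 2.96 near background, and was higher in white than in brown (2.15 ± 0.31, adjusted p = 0.0196). Pla2g12a was lower than in white (-1.82 ± 0.28) and brown (-1.49 ± 0.28). Pnpla8, a calcium-independent phospholipase, was called lower than in brown (-1.58 ± 0.16) and also lower than in white (-1.23 ± 0.16).

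Of 6 other prostanoid enzymes 3 were called lower in marrow-derived than in white (13.6% of all genes) and 2 lower than in brown (11.7%). Prxl2b, which makes prostaglandin F, was 6.47-fold lower than in white (-2.69 ± 0.46, limma adjusted p = 0.014; 0.072 without white replicate 2), and the difference was -3.35 without the GFP array and -2.04 without the LacZ array. The constitutive prostaglandin E synthase Ptges2 was lower than in white (-1.39 ± 0.35, adjusted p = 0.0392, kept in 1 of 6 fits with an array left out) and 6.71-fold lower than in brown (-2.75 ± 0.35, adjusted p = 0.00857). Its order differed from that of Ptges: Ptges2 read 7.68 and 6.93 on the GFP and LacZ arrays, 8.40 and 8.97 in white and 10.26 and 9.84 in brown. The carbonyl reductase gene Cbr1 was lower than in white (-0.78 ± 0.18) and brown (-1.10 ± 0.18). With 1 array left out, the Cbr1 difference from white was -0.92 to -0.64, and that call was lost each time. The thromboxane synthase gene Tbxas1 read 10.45 and 6.89, 10.74 and 8.83, and 7.25 and 6.86, and white against brown it differed by 2.73 ± 1.25 (adjusted p = 0.249).

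Of 8 other lipoxygenase and leukotriene genes 3 were called lower in marrow-derived than in white, where 13.6% of all genes were. Mgst3, a membrane glutathione transferase related to Ltc4s, was 4.42-fold lower than in white (-2.14 ± 0.21, limma adjusted p = 0.0045). It was higher in white than in brown (1.61 ± 0.21), as was Ggt5, which trims leukotriene C (2.11 ± 0.23). Mgst2 was lower in marrow-derived than in white (-1.28 ± 0.19) and brown (-1.16 ± 0.19), and Ggt5 was lower than in white (-1.53 ± 0.23).

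Receptors went both ways. Of 9 prostanoid receptors 3 were called higher (12.2% of all genes) and 2 lower (13.6%) in marrow-derived than in white, and 2 higher (8.71%) and 2 lower (11.7%) than in brown. Ptgfr, the prostaglandin F receptor, read 3.17 on both marrow-derived arrays, near background, against 7.47 and 7.67 in white and 4.23 and 5.51 in brown. It was 21.1-fold lower than in white (-4.40 ± 0.42, limma adjusted p = 0.00441), lower than in brown (-1.70 ± 0.42, adjusted p = 0.0458) and higher in white than in brown (2.70 ± 0.42). Without brown replicate 1 these last differences were -2.34 and 2.06, and without brown replicate 2 they were -1.06 and 3.34. Ptger3, the receptor through which prostaglandin E restrains lipolysis, was 7.79-fold lower than in white (-2.96 ± 0.63, adjusted p = 0.0251) and 10.4-fold lower than in brown (-3.38 ± 0.63, adjusted p = 0.0219). Without the GFP array these were -3.87 and -4.29 and without the LacZ array -2.05 and -2.47, and the calls were kept in 2 and 4 of 6 fits with an array left out, being lost without a white or brown array in the first and without a brown array in the second. Ptger2, which raises cyclic AMP, was 6.67-fold higher than in white (2.74 ± 0.72, adjusted p = 0.0455), and with an array left out the call was kept only without white replicate 1 (3.82), while it was 1.66 without white replicate 2. The prostacyclin receptor gene Ptgir was 5.01-fold higher than in brown (2.32 ± 0.57, adjusted p = 0.0452). Ptgir was also called higher than in white (2.40 ± 0.57, adjusted p = 0.035). The thromboxane receptor gene Tbxa2r was 2.53-fold higher than in white (adjusted p = 0.0141) and 2.15-fold higher than in brown (adjusted p = 0.0287). Of 7 leukotriene and lipoxin receptors Cysltr2 was called higher than in white and brown (0.70 ± 0.18 and 0.75 ± 0.18), at values of 2.84 to 3.84 near background. Cysltr1 read 6.93 and 3.89 on the GFP and LacZ arrays, 6.45 and 4.46 in white and 3.68 and 3.27 in brown, and passed in no comparison.

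Each of the 9 members spanned at least 2 units over the 6 arrays, and the 3 genes most like each in shape were found by Pearson r over the 6 arrays. With 6 arrays in 3 groups many genes reach a high r, so this is a description. Alox5 was nearest to the chemokine receptor gene Ccr1 (0.997), Cmah (0.996) and Slc14a1 (0.995). Alox5ap was nearest to the complement receptor gene C5ar1 (0.998), the chemokine gene Ccl22 (0.998) and the Fc receptor gene Fcgr3 (0.997). Alox15 was nearest to Serpinb2 (0.995), Mcemp1 (0.983) and the scavenger receptor gene Cd163 (0.972), and Hpgds to Ak8 (0.996), the proton-sensing receptor gene Gpr65 (0.996) and Slc9a7 (0.995). Ltc4s was nearest to the chemerin receptor gene Cmklr1 (0.993), 9330179D12Rik (0.991) and Sec16b (0.987), and Ptgs2 to Ubash3b (0.993), AI662270 (0.992) and Taok3 (0.991). Ptgds was nearest to Pank1 (0.994), Ntmt1 (0.993) and the cytochrome oxidase subunit gene Cox7a1 (0.993). Ptges was nearest to Mst1r (0.993), Ntsr2 (0.993) and Rgs7bp (0.99), and Alox12 to Tcim (0.997), Gm3715 (0.996) and 4632404H12Rik (0.995).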

How the data were processed

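Total RNA of 6 samples was measured on 1 array each. Each deposited value is the log2 expression of a probe set. The submitters' processing notes name RMA and Partek without saying what each did. RMA, where applied as usual, equalizes array distributions and gives no detection calls. The log base was inferred from their range, 1.67 to 13.97 (array medians 5.46 to 5.72). Of 43057 probe sets 33565 had 1 symbol in the platform annotation, 857 several and 8635 none here; 33376 matched RefSeq (GRCm38.p6) by gene ID. No filter on low values was used.

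Group means of all 6 arrays were fitted for each gene in R 4.3.3 with limma 3.58.1 (3 residual and 2.35 prior degrees of freedom), with two-sided contrasts; the script was tested on simulated data. Precision is limited by the number of arrays. The members and lists were chosen with earlier results of these data known. Named were all members, up to 3 called genes of each pathway list by size of difference (or the largest, as a value), and the 3 genes most like each member; any other gene was picked with its values in view. The olfactory receptor level and the counts of pathway genes with an array left out were added after seeing the data.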

Additional observations from a re-analysis of the deposited data

How the results depend on the processing

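Scaling, probe set averaging, the filter at a mean of 4, an intensity trend and testing all probe sets changed no count of called members by over 1.5 times. Without moderation limma's linear model called 0 members higher and 0 lower in each of the 3 comparisons; unadjusted p-values under 0.05 numbered 1 and 1, 0 and 1, and 0 and 2 (marrow-derived against white, marrow-derived against brown, white against brown). With only the 2 groups compared, 0 members were lower in marrow-derived than in white, 1 (Ptgs2, adjusted p = 0.0295) higher than in brown and 2 (Alox5, 0.0101, and Ltc4s, 0.0159) higher in white than in brown. With the replicate block these counts were 0 lower, 1 higher (Ptgs2, 0.0221) and 1 higher (Ptgs2, 0.04). Deviations of same-numbered arrays correlated across genes at 0.205 (marrow-derived and white), -0.0038 (marrow-derived and brown) and 0.277 (white and brown). The labels do not pair the numbers, so whether same-numbered arrays share a preparation is not known.

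Leaving out 1 array, members called higher and lower ranged from 1 to 3 and 0 to 4 against white, 0 to 3 and 0 to 2 against brown, and 0 to 2 and 0 to 2 for white against brown; a group left with 1 array is assumed to vary like the others. The sign turned in 10 differences. Against white the ranges were -2.20 to 1.73 (Alox5), -3.05 to 1.07 (Alox5ap), -2.82 to 3.99 (Alox15), -0.74 to 1.19 (Ptgs2) and -3.09 to 0.22 (Hpgds). Against brown they were -0.37 to 3.75 (Alox5ap), -0.80 to 0.19 (Alox12), -0.28 to 6.53 (Alox15), -1.72 to 1.29 (Ltc4s) and -0.31 to 2.78 (Hpgds). Over all genes limma called 2170 higher and 2409 lower against white, but 254 and 301 without moderation, 1355 and 1372 with only these groups, and 899 and 850 without white replicate 2. Against brown 1543 and 2068 became 296 and 665 without moderation, 121 and 355 without brown replicate 1 and 61 and 239 without brown replicate 2. White against brown 686 and 946 became 0 and 0 without moderation (1833 and 2047 at an unadjusted p under 0.05), 1036 and 1215 with only these groups, 321 and 516 without white replicate 1, 391 and 341 without white replicate 2, and 0 and 7 or 0 and 5 without a brown array. The cause was not tested.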

Other observations

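Of 15 epoxygenase and related genes 1 was called higher and 3 lower in marrow-derived than in white, and 2 higher and 3 lower than in brown. Over all genes 12.2% and 13.6%, and 8.71% and 11.7%, were called, so these counts lie near the background and are no result about the list. Cyp2c23, an arachidonic acid epoxygenase, read 4.70 and 5.65 on the GFP and LacZ arrays, 8.26 and 7.55 in white and 4.87 and 3.96 in brown adipocytes. It was 6.62-fold lower in marrow-derived than in white (-2.73 ± 0.48, limma adjusted p = 0.0152, but 0.0576 without white replicate 1) and 11.2-fold higher in white than in brown (3.49 ± 0.48, adjusted p = 0.0176). Cyp2u1 was lower in marrow-derived (-2.13 ± 0.22) and white (-1.40 ± 0.22) than in brown. Ephx2, the soluble epoxide hydrolase, was 4.77-fold lower in marrow-derived than in brown (-2.25 ± 0.57, adjusted p = 0.0476; -3.14 without the GFP array and -1.37 without the LacZ array). The omega-hydroxylase family gene Cyp4f13 was lower in marrow-derived than in white (-0.89 ± 0.19) and brown (-1.20 ± 0.19). With 1 array left out, its difference from white was -1.06 to -0.71, and that call held only without white replicate 1. Cyp4f14 was lower in marrow-derived than in white (-1.24 ± 0.21) at values of 2.42 to 3.99.

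Of 6 breakdown and transport genes, the prostaglandin reductase gene Ptgr2 was lower in marrow-derived than in white (-1.53 ± 0.19, limma adjusted p = 0.0068) and brown (-2.04 ± 0.19, adjusted p = 0.00415), and Ptgr1 was lower than in white (-2.14 ± 0.52, adjusted p = 0.0353; -2.90 without the GFP array and -1.39 without the LacZ array, and not called without a white or brown array). The exporter gene Abcc4 was, like Alox12, lowest in white. It read 9.80 and 10.32 on the GFP and LacZ arrays, 7.78 and 6.89 in white and 9.81 and 9.62 in brown. It was 6.62-fold higher in marrow-derived than in white (2.73 ± 0.35, adjusted p = 0.00771) and lower in white than in brown (-2.39 ± 0.35, adjusted p = 0.0203). The prostaglandin importer gene Slco2a1 was higher in white than in brown (2.56 ± 0.49, adjusted p = 0.0386). Calls against brown in these paragraphs were lost with at least 1 array left out.

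The gap between the GFP and LacZ arrays reached past the members. Of 70 other pathway genes 9 were at least 2 units higher on the GFP array and 0 that much higher on the LacZ array, where 2.92% and 0.440% of all genes were. Chosen after their values were seen, they were Tbxas1 (3.56), Cyp4f18 (3.55), Fpr2 (3.29), Cysltr1 (3.04), Pla2g7 (2.75), Pla2g2d (2.72), Pla2g4a (2.50), Hpgd (2.38) and Ptgis (2.16). Pla2g7, which cleaves platelet-activating factor, read 8.02 and 5.26 on the GFP and LacZ arrays, 9.98 and 7.49 in white and 9.48 and 9.70 in brown.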
